A study of Homo sapiens with 32 samples.

Results

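Transcripts of 10 myeloid granule genes and their partners were followed in THP-1 cells, a human monocytic leukemia line. The 10 genes were MPO, ELANE, PRTN3, AZU1, CTSG, LYZ, FCN1, CFD, SERPINB1 and SRGN, found by their symbols among 60107 genes in the tables. All 10 were among the 12406 genes tested, those with a mean deposited normalized count of at least 10. No measured value entered the choice of symbols, but results of these data were known when the genes were proposed.

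Neutrophils and monocytes store antimicrobial proteins in granules that are filled while the cells are still immature. Azurophil granules hold myeloperoxidase (MPO), which makes hypochlorous acid, and a family of related serine proteases: neutrophil elastase (ELANE), proteinase 3 (PRTN3), cathepsin G (CTSG) and azurocidin (AZU1), a relative without protease activity. Lysozyme (LYZ) cleaves bacterial cell walls, serglycin (SRGN) is the proteoglycan that packs positively charged proteins into granules, and SERPINB1 is a cytosolic inhibitor of elastase-like and chymotrypsin-like proteases. Ficolin-1 (FCN1) recognises acetylated sugars and starts the lectin pathway of complement, and factor D (CFD) is the serine protease that cleaves factor B in the alternative pathway.

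RNA was measured in 32 libraries by QuantSeq, which reads the 3′ end of polyadenylated transcripts. They fell into 8 groups of 4: KO, WT, HA and SA cells, each unstimulated or given LPS at 100 ng/ml for 3 hours. KO cells lacked ATP-citrate lyase (ACLY), the enzyme that makes cytosolic acetyl-CoA, and the other lines were KO cells given back ACLY by lentivirus: the wild-type enzyme (WT), the catalytically inactive H760A form (HA) or the S455A form, which cannot be phosphorylated at that serine (SA). Transduced cells were selected with puromycin, and whether KO cells carried a control vector was not given in the sources used here. Each genotype was 1 line, so the 4 libraries of a group were repeats of that line. The tests then measure the spread between these repeats, and genotype and any other difference between lines cannot be told apart. The paper's methods also name a lower LPS dose for treating cells, and the dose of the labels was used here.

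Libraries held 6504099 to 14750815 reads on genes. ACLY itself was at 92.0 to 119 normalized counts in WT libraries and 68.1 to 108 in KO libraries without LPS, and the position of the edit and of the transgene's 3′ end relative to these reads was not given in the sources used here, so this count checked neither. As a check of stimulation, TNF was 1.02 (KO), 0.95 (HA) and 0.97 (SA) log2 units higher with LPS, each called, and 0.63 higher in WT with an adjusted p of 0.0658. All 10 monocytic markers were among the tested genes, while the mature neutrophil markers CEACAM8 and LTF were at 0 in every library and the markers of T, erythroid and megakaryocytic cells summed to at most 9.76 normalized counts in any library. In all, 6 libraries stood apart from their own group over all tested genes, with a root mean square deviation at least 1.4 times that of the next library: WT 3, WT+LPS 3, KO 3, KO+LPS 3, HA+LPS 1 and SA+LPS 1. The last was the farthest, at 1.42 log2 units against 0.542 or less for the other SA+LPS libraries. Several results are given with and without these libraries.

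Levels below are normalized counts on a joint scale (reads divided by a median-of-ratios factor computed over all 32 libraries), and differences are log2 fold changes of normalized count + 1. A gene was called when limma's adjusted p (Benjamini-Hochberg over 12406 genes) was below 0.01. Together the 10 genes took 0.552 to 1.43% of the reads on genes. QuantSeq gives about 1 read per transcript end, so the counts carry no length term. On that scale CTSG had the highest mean of the 10 genes (42174, rank 17 of the tested genes), followed by SRGN (20588), LYZ (11725), ELANE (4889), PRTN3 (1244), CFD (1048), AZU1 (954), SERPINB1 (275), MPO (29.4) and FCN1 (15.5, rank 11641). THP-1 cells thus carried much cathepsin G transcript and very little myeloperoxidase or ficolin-1 transcript. MPO and FCN1 values rest on few reads.

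Azurocidin, proteinase 3, elastase and factor D are neighbours on the short arm of chromosome 19, all on the plus strand. On GRCh38 with GENCODE 44, AZU1 spans 825097 to 832018, PRTN3 840999 to 848175, ELANE 851014 to 856247 and CFD 859453 to 867884. The others are on chromosomes 17 (MPO), 14 (CTSG), 12 (LYZ), 9 (FCN1), 6 (SERPINB1) and 10 (SRGN). CFD overlaps MED16 on the opposite strand, and since the strand setting of the read counting was not given in the sources used here, reads of CFD and MED16 cannot be told apart with certainty. Near-identical 3′ ends were not present: the longest run of bases shared by 2 members within the last 500 bases of their transcripts was 27, between LYZ and SERPINB1, and 17 between ELANE and PRTN3.

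Promoter windows of 300 bases (250 before to 50 after the RefSeq start) were found for 6 of the 10 genes: PRTN3, AZU1, CTSG, FCN1, CFD and SERPINB1. Those of AZU1 and PRTN3 are shown because these genes varied together across libraries, and those of FCN1 and CFD because both genes fell in KO cells. Capitals mark matches, on either strand, to letters used for the PU.1 core (GAGGAA), C/EBP (TTNCNNAA), RUNX (TGTGGT) and MYB (TAACNG). Sequences are from RefSeq on GRCh38.p14, written 5′ to 3′ along the gene's strand. They lie at chr19:827587-827886 (AZU1, plus), chr19:840749-841048 (PRTN3, plus), chr9:134917863-134918162 (FCN1, minus) and chr19:859414-859713 (CFD, plus). The AZU1 window starts from a RefSeq start that lies inside the GENCODE span.
AZU1: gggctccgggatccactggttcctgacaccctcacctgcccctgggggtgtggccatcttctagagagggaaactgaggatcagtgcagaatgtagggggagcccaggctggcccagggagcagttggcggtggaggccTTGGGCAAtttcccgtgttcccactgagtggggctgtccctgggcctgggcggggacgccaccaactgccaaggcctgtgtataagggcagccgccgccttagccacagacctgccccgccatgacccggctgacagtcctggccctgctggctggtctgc
PRTN3: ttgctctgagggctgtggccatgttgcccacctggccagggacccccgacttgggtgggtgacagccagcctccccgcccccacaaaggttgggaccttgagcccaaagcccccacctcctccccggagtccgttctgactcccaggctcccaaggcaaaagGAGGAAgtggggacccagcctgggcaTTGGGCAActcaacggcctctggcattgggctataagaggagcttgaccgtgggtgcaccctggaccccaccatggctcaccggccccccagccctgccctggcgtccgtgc
FCN1: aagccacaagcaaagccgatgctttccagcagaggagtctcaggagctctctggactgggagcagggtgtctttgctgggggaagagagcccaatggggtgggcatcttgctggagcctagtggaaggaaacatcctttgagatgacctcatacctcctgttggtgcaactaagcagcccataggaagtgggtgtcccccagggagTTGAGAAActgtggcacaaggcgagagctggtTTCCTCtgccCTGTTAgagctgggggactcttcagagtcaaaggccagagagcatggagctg
CFD: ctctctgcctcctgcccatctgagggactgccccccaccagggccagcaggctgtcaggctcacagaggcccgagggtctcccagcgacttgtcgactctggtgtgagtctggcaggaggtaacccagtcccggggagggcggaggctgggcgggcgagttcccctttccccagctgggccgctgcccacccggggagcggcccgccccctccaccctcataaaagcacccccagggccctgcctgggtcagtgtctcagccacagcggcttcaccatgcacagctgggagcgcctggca

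AZU1 and PRTN3 shared the same 8 letters at their C/EBP match, and PRTN3 and FCN1 also held the PU.1 letters. FCN1 had a C/EBP match and 1 match to the MYB letters, and the CFD and SERPINB1 windows held none of the 4 motifs. CTSG held 2 PU.1 matches and 1 C/EBP match. Such short motifs are common: of 35116 RefSeq promoter windows of this length, 27.9% held GAGGAA, 36.8% TTNCNNAA, 13.1% TGTGGT and 20.8% TAACNG.

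KO and HA cells carried more lysozyme transcript and less factor D transcript than WT cells, and ficolin-1 transcript was lower in KO cells. In unstimulated KO cells 3 of the 10 genes were called against WT, LYZ higher and FCN1 and CFD lower, where 2.9% of all tested genes were called (1.8% higher and 1.1% lower). With LPS the same 3 genes were called, against 3.47% of all genes (2.14% higher and 1.33% lower). In HA cells LYZ and CFD were called without LPS (2.52% of all genes, 1.42% higher and 1.1% lower) and with LPS (2.02%, 1.16% higher and 0.854% lower). At an unadjusted p below 0.05 the HA counts were 7 and 6 of 10, where 24.5 and 16.7% of all genes passed. The median log2 difference of the 10 genes from WT was 0.06 in KO, 0.54 in HA and -0.27 in SA without LPS, against -0.03, -0.02 and -0.01 over all tested genes. All of these comparisons share the WT libraries.

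**Figure D1:**
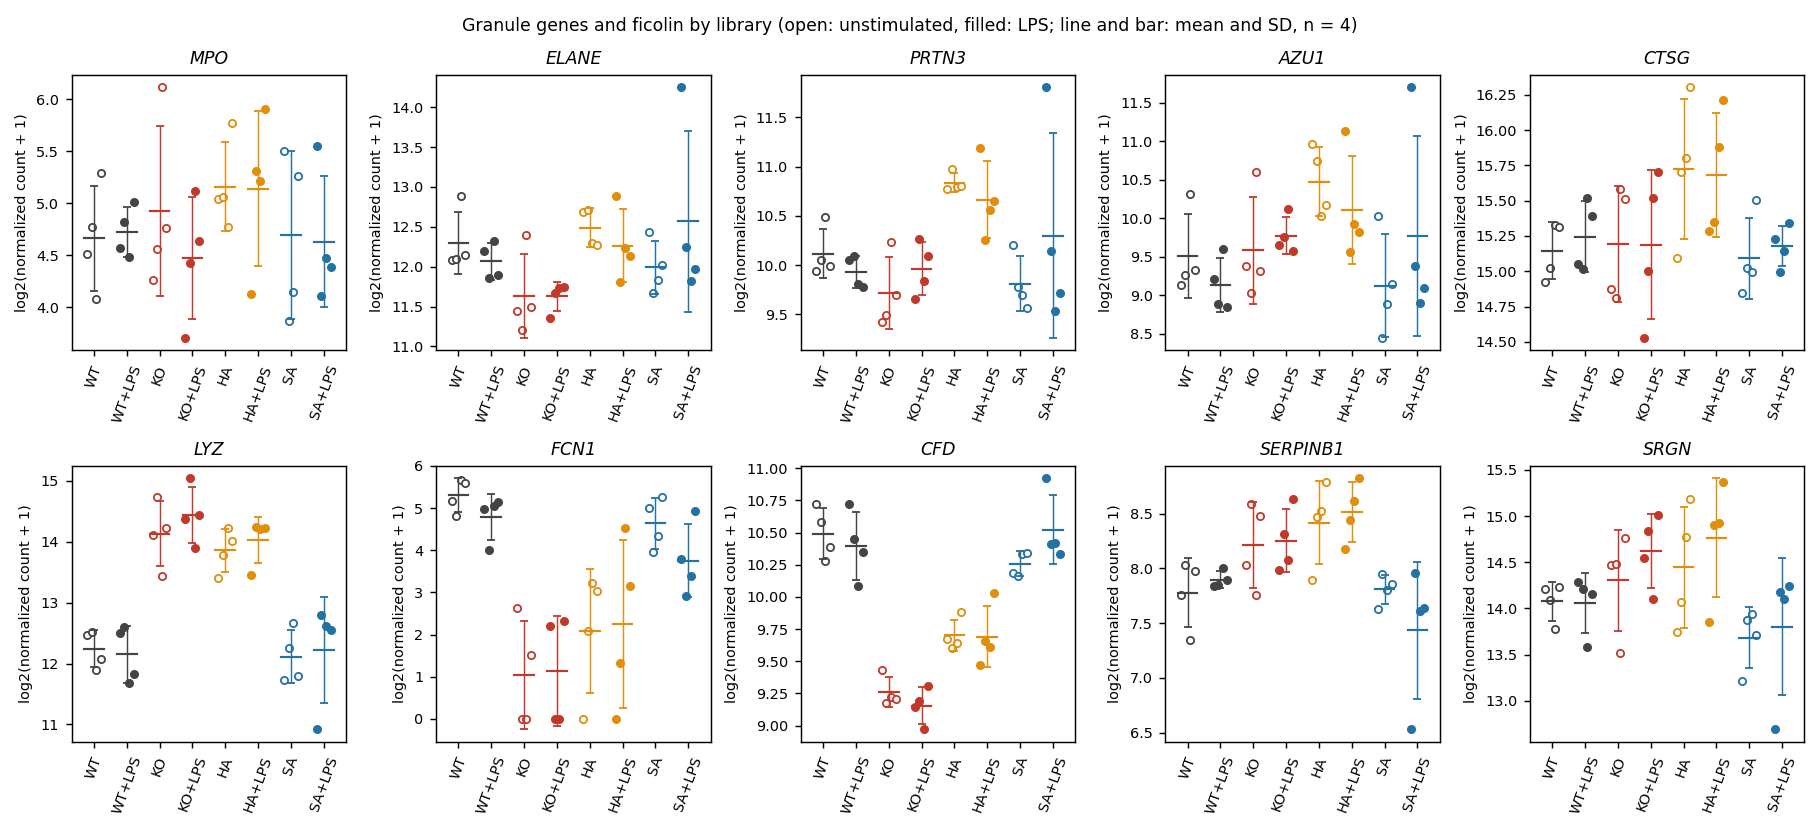
Log2(normalized count + 1) of the 10 genes (y axis) in each library of the 8 groups (x axis), with open points for unstimulated and filled points for LPS libraries. Lines and bars give the group mean and SD (n = 4). LYZ sits higher and CFD lower in KO and HA than in WT, and the first SA+LPS library is far above its group for ELANE, PRTN3 and AZU1.

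Lysozyme had the largest rise of the 10 genes. In unstimulated WT libraries LYZ was at 5679, 5887, 3821 and 4290 normalized counts, and in SA libraries at 3415, 4862, 6504 and 3547. KO libraries held 17636, 27325, 11113 and 19217, and HA libraries 10813, 14159, 19208 and 16482. The lowest KO or HA value exceeded the highest WT or SA value, and KO overlapped HA as WT overlapped SA. LYZ was 1.89 ± 0.34 log2 units higher in KO than in WT (SE, 3.7-fold, adjusted p = 4.25e-04, limma) and 1.62 ± 0.34 higher in HA (3.07-fold, adjusted p = 0.0032, limma). The HA call was lost without WT 3, WT 4, HA 3 or HA 4 in turn (adjusted p from 0.0106 to 0.0149 in limma, log2 difference from 1.49 to 1.57).

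With LPS the LYZ values were 5806, 6176, 3272 and 3651 in WT, 21154, 33700, 15302 and 22303 in KO, 11270, 19306, 18858 and 19173 in HA, and 1940, 7093, 6251 and 5994 in SA. KO and HA again lay clear of WT and SA. The differences from WT were 2.29 ± 0.34 in KO (4.88-fold, adjusted p = 2.84e-05, limma) and 1.88 ± 0.34 in HA (3.68-fold, adjusted p = 7.11e-04, limma). In SA cells the difference was -0.13 without LPS (95% interval -0.82 to 0.56) and 0.07 with LPS (-0.63 to 0.76). KO and HA did not differ by the test, with intervals of -0.42 to 0.96 without LPS and -0.29 to 1.10 with LPS. Without the 6 libraries that stood apart, LYZ differed from WT by 2.00 and 2.31 in KO and by 1.50 and 1.91 in HA, all called.

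Factor D moved the other way with a small spread. Unstimulated WT libraries held 1688, 1531, 1239 and 1340 normalized counts of CFD, and SA libraries 1164, 1143, 1293 and 1297. In KO libraries the counts were 689, 578, 596 and 592, and in HA libraries 818, 775, 800 and 942. The order was WT and SA, which overlapped, then HA, then KO, with every HA library above every KO library. CFD fell by 1.23 ± 0.14 log2 units in KO (2.35-fold lower, adjusted p = 6.97e-07, limma) and by 0.79 ± 0.14 in HA (1.73-fold lower, adjusted p = 7.98e-04, limma).

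With LPS, CFD was at 1685, 1395, 1083 and 1300 in WT, 565, 585, 501 and 635 in KO, 711, 805, 782 and 1043 in HA, and 1939, 1358, 1371 and 1291 in SA. The same order held. CFD fell by 1.24 ± 0.14 in KO (adjusted p = 6.65e-07, limma) and by 0.71 ± 0.14 in HA (adjusted p = 0.00265, limma). The HA call with LPS was lost on the deposited scale, in which the lines were normalized separately (-0.55, adjusted p = 0.0177 in limma), with the fit limited to the HA+LPS and WT+LPS libraries (adjusted p = 0.0518 in limma) and without WT+LPS 1, WT+LPS 2, HA+LPS 1, HA+LPS 2 or HA+LPS 3 in turn (adjusted p from 0.0106 to 0.0226 in limma). KO was lower than HA by 0.44 log2 units without LPS (interval -0.73 to -0.15, adjusted p = 0.258, limma) and by 0.54 with LPS (-0.83 to -0.24, adjusted p = 0.117, limma), neither called. In SA the difference from WT was -0.24 without LPS (interval -0.53 to 0.06) and 0.12 with LPS (-0.17 to 0.42).

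Ficolin-1 transcript was close to the detection limit in KO cells. FCN1 stood at 34.8, 27.2, 50.0 and 47.0 normalized counts in unstimulated WT libraries, or 153 reads in all, and at 31.1, 14.5, 19.2 and 37.3 in SA (127 reads). KO libraries held 5.20, 0, 0 and 1.87 (6 reads in all) and HA libraries 0, 3.24, 8.37 and 7.15 (19 reads). No KO or HA library reached a WT or SA library. The fitted difference was -4.27 ± 0.81 in KO (adjusted p = 8.85e-04, limma) and -3.22 ± 0.81 in HA (adjusted p = 0.0148, limma), which was not called. These sizes depend on the count added before the logarithm: with 8 in place of 1 they were -2.29 and -1.94, and the HA value was then called (adjusted p = 7.68e-04, limma). The HA value was also called by voom on the recovered reads (-3.56, adjusted p = 0.0092, limma), in the blocked fit of all groups (adjusted p = 0.00726, limma), without the libraries that stood apart (-3.10, adjusted p = 0.00399, limma) and without HA+LPS 1 or HA+LPS 3 (adjusted p = 0.00765 and 0.00871, limma), which entered its estimate of spread.

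With LPS, FCN1 was at 30.4, 15.0, 32.1 and 34.6 in WT (107 reads), 3.61, 0, 0 and 3.97 in KO (8 reads), 0, 1.49, 22.1 and 7.82 in HA (33 reads) and 12.9, 6.51, 9.42 and 29.5 in SA (63 reads). KO libraries lay below all WT libraries, while 1 HA library reached into the WT range. The fitted differences were -3.66 ± 0.81 in KO (adjusted p = 0.00386, limma), -2.54 ± 0.81 in HA (adjusted p = 0.0785, limma) and -1.04 in SA (interval -2.70 to 0.63). With 8 added before the logarithm the KO value was -1.85. The KO call was lost with no filter on low genes (adjusted p = 0.0101, limma), with the fit limited to the KO+LPS and WT+LPS libraries (0.0104) and without the libraries that stood apart (-3.20, 0.015), and also without WT+LPS 1, WT+LPS 3, WT+LPS 4, KO+LPS 2 or KO+LPS 3 in turn (0.0137 to 0.0231).

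**Figure D2:**
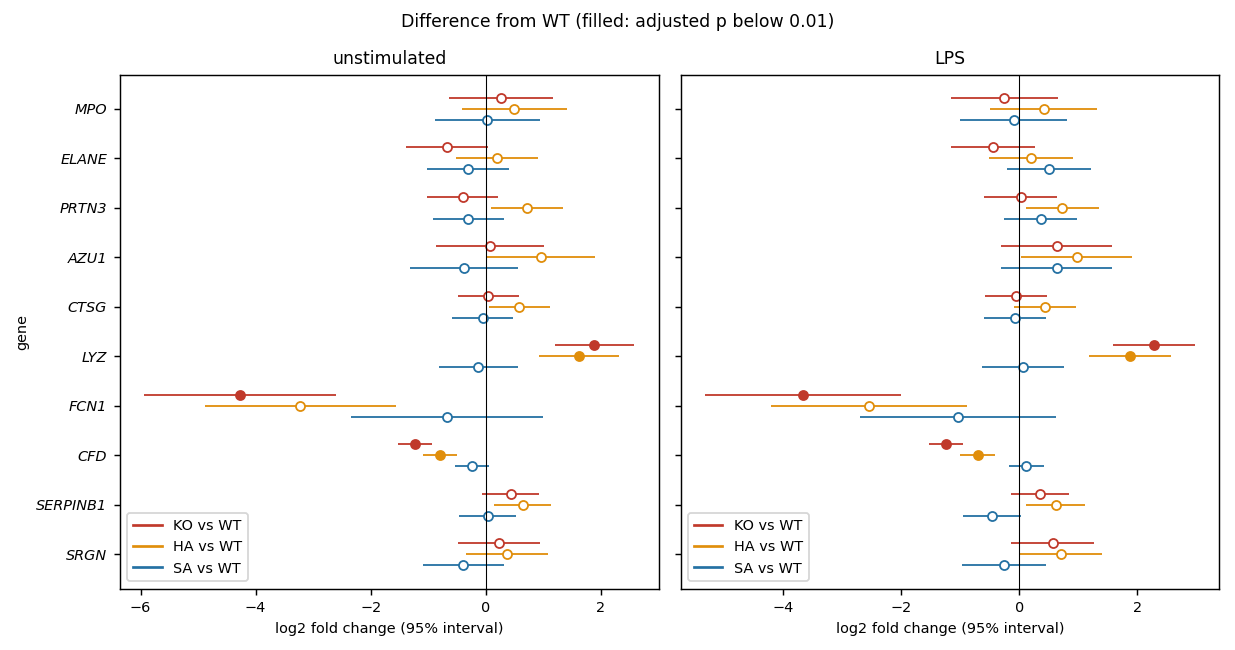
Log2 fold change from WT with its 95% interval (x axis) for the 10 genes (y axis) in KO, HA and SA cells, without LPS (left) and with LPS (right). Filled points were called (adjusted p below 0.01). LYZ lies to the right and CFD to the left of 0 for KO and HA, and every SA interval includes 0.

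Libraries of the 2 groups compared did not overlap for 3 of the 10 genes in KO against WT without LPS (12% of all tested genes), namely LYZ, FCN1 and CFD, and for 4 with LPS (13.9% of all genes), where ELANE joined them. In HA against WT this held for 4 genes without LPS (17.6% of all genes), namely PRTN3, LYZ, FCN1 and CFD, and for 4 with LPS (13.5%), namely PRTN3, LYZ, CFD and SERPINB1. Between KO and HA it held for PRTN3 and CFD without LPS (4.98% of all genes) and for ELANE and CFD with LPS (5.09%), each lower in KO.

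None of the serine protease genes of the azurophil granule was called against WT with every library in the unblocked fit. Elastase was at 4323, 4370, 7553 and 4527 normalized counts in unstimulated WT libraries, 2775, 2352, 5381 and 2874 in KO, 6562, 6721, 5036 and 4932 in HA and 5546, 3259, 3645 and 4151 in SA. KO libraries were low except KO 3, and WT 3 was likewise high in its group. ELANE differed by -0.67 ± 0.35 in KO (adjusted p = 0.40, limma) and by 0.19 in HA (interval -0.52 to 0.90). With LPS the counts were 4677, 3702, 5115 and 3803 in WT and 2613, 3269, 3399 and 3435 in KO, and the difference was -0.44 (interval -1.15 to 0.28).

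Same-numbered KO and WT libraries shifted in parallel, and with the number as a block in a fit of the 2 groups ELANE in KO was called without LPS (-0.67, adjusted p = 9.93e-04, limma), which made 4 called genes where that fit called 5.83% of all genes. It was also called without the libraries that stood apart (-0.73, adjusted p = 0.00883, limma). In the blocked fit with LPS AZU1 (0.64, adjusted p = 0.00103, limma) and SRGN (0.57, adjusted p = 0.00254, limma) were called besides LYZ, FCN1 and CFD, which made 5, where that fit called 10.7% of all genes.

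Proteinase 3 and azurocidin had higher means in HA than in WT cells, and neither difference was called. PRTN3 was at 983, 1057, 1439 and 1014 in unstimulated WT libraries and at 1753, 2019, 1769 and 1780 in HA libraries, which lay above all WT libraries. KO libraries held 687, 720, 1205 and 829 and SA libraries 1182, 878, 829 and 756. The HA difference was 0.72 ± 0.30 (interval 0.10 to 1.34, adjusted p = 0.143, limma) and that with LPS 0.73 ± 0.30 (0.11 to 1.35, adjusted p = 0.198, limma). AZU1 was at 560, 613, 1273 and 642 in WT and 1995, 1709, 1041 and 1154 in HA without LPS. Its HA difference was 0.97 ± 0.46 without LPS (interval 0.03 to 1.90, adjusted p = 0.19, limma) and 0.97 ± 0.46 with LPS (adjusted p = 0.278, limma).

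In unstimulated HA cells both were called once the libraries that stood apart were left out, PRTN3 at 0.84 (adjusted p = 4.04e-04, limma) and AZU1 at 1.24 (adjusted p = 5.82e-04, limma), which made 5 called genes together with LYZ, FCN1 and CFD. Under that setting 2833 of all genes (22.8%) were called, against 313 with every library. With LPS the values without those libraries were 0.52 for PRTN3 and 0.78 for AZU1, not called.

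Cathepsin G, the most abundant of the set, was at 31073, 33343, 41067 and 40667 in unstimulated WT, 29985, 28693, 49112 and 46615 in KO, 34958, 53475, 57120 and 80963 in HA and 29408, 33341, 32660 and 46526 in SA. The groups overlapped. Its difference from WT was 0.05 in KO (interval -0.48 to 0.58) and 0.58 in HA (0.05 to 1.11, adjusted p = 0.164, limma) without LPS, and -0.06 and 0.44 with LPS. Myeloperoxidase ranged from 12.0 to 68.5 over all 32 libraries, with group means between 22.6 and 37.6, and every group overlapped WT. The MPO intervals against WT ran from -0.64 to 1.17 in KO and -0.41 to 1.41 in HA without LPS, so both hold a 2-fold rise. With LPS the MPO differences were -0.25 in KO and 0.42 in HA.

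The cytosolic inhibitor SERPINB1 and the granule proteoglycan SRGN were higher in part of the KO and HA libraries. SERPINB1 was at 215, 261, 161 and 251 in unstimulated WT, 260, 383, 215 and 356 in KO and 236, 354, 366 and 442 in HA. With LPS the HA libraries (288 to 451) lay above the WT libraries (228 to 256). Differences from WT were 0.44 in KO and 0.64 in HA without LPS, and 0.35 and 0.62 with LPS, with adjusted p from 0.105 to 0.534 in limma. SRGN had group means of 17396 in WT, 21268 in KO, 24048 in HA and 13414 in SA without LPS, and its HA libraries ran from 13703 to 37256. The SRGN differences were 0.23 in KO and 0.37 in HA without LPS and 0.57 and 0.70 with LPS, none called in the unblocked fit.

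In SA cells none of the 10 genes was called against WT, without or with LPS, and neither was any other gene (0% in each, limma). At an unadjusted p below 0.05 the count was 0 of the 10 genes in both, against 445 (3.59%) and 646 (5.21%) of all genes, and voom called 0 as well. The paper, with DESeq2 at the same limit on adjusted p, reports CXCL11, IFI44, GBP1, EPSTI1 and IFIT2 as higher in SA than in WT cells after LPS. The differences of the 10 genes ran from -0.67 (FCN1) to 0.03 (SERPINB1) without LPS and from -1.04 (FCN1) to 0.63 (AZU1) with LPS. The neighbours ELANE, PRTN3 and AZU1 had their highest values in 1 SA+LPS library: ELANE was at 19509 there and 3603 to 4860 in the other three libraries, PRTN3 at 3582 and 740 to 1128, and AZU1 at 3336 and 476 to 666. Without the libraries that stood apart the SA differences with LPS were 0.03 for ELANE, -0.18 for PRTN3 and 0.14 for AZU1, where the full fit gave 0.51, 0.37 and 0.63.

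A direct comparison of KO with HA, both without ACLY activity, called 0 of the 10 genes without LPS (0.226% of all genes) and 0 with LPS (0.00806%), in limma. At an unadjusted p below 0.05 there were 4 and 2, where 10.4 and 10.5% of all genes passed. PRTN3 had the lowest value without LPS, at -1.12 (interval -1.74 to -0.50, adjusted p = 0.127, limma), followed by FCN1 at -1.05, AZU1 at -0.89 and ELANE at -0.86. PRTN3 was called without SA+LPS 1, a library of neither group that entered the estimate of spread (adjusted p = 0.00214, limma). When all 6 libraries that stood apart were left out, PRTN3 (-1.30), AZU1 (-1.24) and ELANE (-1.11) were called, each lower in KO, with adjusted p of 2.58e-05, 0.00188 and 2.06e-04 in limma. Under that setting 1459 of all genes (11.8%) were called against 28.

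LPS for 3 hours moved none of the 10 genes past the threshold in any line. The counts called were 0 of 10 in WT (0.25% of all genes), KO (0.572%), HA (0.403%) and SA (0.492%), and 0 of 10 in each line at an unadjusted p below 0.05 as well, where 1.61 (WT), 5.42 (KO), 4.77 (HA) and 9.85% (SA) of all genes passed. Log2 responses ran in WT from -0.52 (FCN1) to 0.12 (SERPINB1), in KO from -0.45 (MPO) to 0.32 (SRGN), in HA from -0.37 (AZU1) to 0.32 (SRGN) and in SA from -0.88 (FCN1) to 0.64 (AZU1). The difference of the response from that in WT was called for 0 of the 10 genes in KO (0.00806% of all genes), HA (0%) and SA (0%), by limma, with 0 at an unadjusted p below 0.05 in each and 0 by voom. Among all genes those unadjusted counts were 175 (1.41%), 142 (1.14%) and 457 (3.68%).

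Other granule and lysosomal proteins were read from fixed lists. Of 20 genes listed as azurophil companions, lysosomal hydrolases and membrane proteins among them, 16 were tested. In KO 2 were called without LPS and 1 with LPS, all higher, where 1.8 and 2.14% of all genes were called higher. LAMP2, a membrane protein of lysosomes, rose by 0.53 and 0.62 log2 units in KO (adjusted p = 3.99e-04 and 4.17e-05, limma). The aspartic protease CTSD rose by 1.09 in KO without LPS (named after its value was seen). The CTSD call was lost without WT 4, KO 1 or KO 3 in turn (adjusted p from 0.0124 to 0.0162 in limma). In HA and SA none of the 16 was called. Of all genes 2.52% were called in HA without and 2.02% with LPS, and 0% in SA. The median difference of the 16 was 0.24 in HA and -0.07 in SA without LPS, against -0.02 and -0.01 over all genes. The blocked fit of KO and WT, with 5.83 and 10.7% of all genes called, had 5 of the 16 without and 6 with LPS, all higher. The unblocked fit of only these groups had 0 in both, where 179 and 300 of all genes were called. On the deposited scale 3 were called higher in HA without LPS (503 of all genes called) and 1 with LPS (352). Without the libraries that stood apart 5 were called in HA without LPS, 4 higher and 1 lower, where 22.8% of all genes were called. Secondary and tertiary granule proteins were mostly absent, with 7 of 18 tested. CHI3L1, a chitinase-like protein, fell by 0.61 in KO and 0.55 in HA without LPS and by 0.79 and 0.65 with LPS, and the gelatinase MMP9 fell by 0.97 and 1.32 in HA alone among the calls against WT. Without LPS both HA calls were lost when 1 library was left out: CHI3L1 for 6 of the 8 libraries compared, that is WT 1, 2 and 3 and HA 1, 2 and 3, with adjusted p from 0.0114 to 0.0254 in limma, and MMP9 for all but HA 1, with adjusted p from 0.0151 to 0.0389. In the blocked fit 2 of the 7 were called in KO without LPS (5.83% of all genes) and 3 with LPS (10.7%). PTX3, a pattern recognition protein, rose by 1.79 in KO with LPS (named after its value was seen).

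Genes that mature, sort or release granule proteins gave no call: 0 of 23 tested genes in each of the 6 comparisons with WT by limma. In those comparisons 0 to 3.47% of all genes were called. CTSC, the dipeptidyl peptidase that activates elastase, proteinase 3 and cathepsin G, ran from 708 to 963 normalized counts in WT and 348 to 486 in HA without LPS, a difference of -1.01 (interval -1.66 to -0.36, adjusted p = 0.0511, limma). Its KO difference was -0.56 (interval -1.20 to 0.09). Without the libraries that stood apart CTSC was called in unstimulated HA cells (-1.10, adjusted p = 2.58e-04, limma). It was 1 of 6 genes of this list called there, 3 higher and 3 lower, where 22.8% of all genes were called. Among 19 further myeloid proteases and antimicrobial genes 7 were tested and 0 were called against WT (0 to 3.47% of all genes). The blocked fit of KO and WT called 0 maturation genes without LPS (5.83% of all genes) and 3 with LPS (10.7%), all higher. Of the further proteases and antimicrobial genes it called 4 and 2, in mixed directions. Without the libraries that stood apart 2 of those further genes rose in KO (462 of all genes called) and 2 fell in HA (2833), without LPS.

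Inhibitors of granule proteases, where called with every library in the fit, were higher in KO and HA than in WT. Of 17 listed, 12 were tested, and 2 rose in KO and 3 in HA, without and with LPS alike, while 0 fell. Of all tested genes, 1.8% rose in KO and 1.42% in HA without LPS, and 2.14 and 1.16% with LPS. In SA 0 inhibitors were called, where 0% of all genes were called. The median difference of the 12 inhibitors from WT was 0.60 in KO and 0.59 in HA without LPS. CST7, an inhibitor of cysteine cathepsins that include CTSC, was at 28.9 to 56.8 normalized counts in WT and 50.7 to 108 in SA, and at 99.8 to 265 in KO and 134 to 244 in HA, without LPS. It rose by 1.85 in KO (adjusted p = 3.01e-04, limma) and by 2.04 in HA (adjusted p = 1.36e-04, limma), and with LPS by 2.02 and 2.06. SERPING1, the C1 inhibitor of complement and contact proteases, was at 1.70 to 7.26 in WT and 38.4 to 50.7 in KO, a rise of 3.12 (adjusted p = 3.88e-04, limma) that rests on low WT counts. In HA it was at 17.0 to 30.4.

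SLPI, a secreted inhibitor of elastase and cathepsin G, was at 281 to 343 in WT and 574 to 866 in HA without LPS, and it rose by 1.19 without and 1.17 with LPS in HA (adjusted p = 1.85e-05 and 2.27e-05, limma). KO libraries held 366 to 548 without LPS, all above the WT libraries, and were not called, but the blocked fit of KO and WT called them (0.59, adjusted p = 0.00911, limma). SERPINB8, an intracellular serpin, was at 262 to 423 in WT and 590 to 1022 in HA and rose by 1.38 and 1.27 (adjusted p = 0.00176 and 0.00433, limma). In KO it was at 437 to 858 without LPS, also above all WT libraries, and was called in the blocked fit (0.92 without and 0.83 with LPS, adjusted p = 3.43e-04 and 9.90e-04, limma) and without the libraries that stood apart (0.88 and 0.89). The SERPINB8 HA call was lost without WT 2 or HA 1 when unstimulated (adjusted p = 0.0108 and 0.0113, limma), and with LPS without WT+LPS 1, 2 or 4 or HA+LPS 1 or 3 (adjusted p from 0.0117 to 0.0307 in limma). Without the libraries that stood apart 3 inhibitors rose in KO (462 of all genes called) and 6 in HA (2833) without LPS. With LPS 4 rose in each (669 of all genes in KO and 359 in HA). In that setting CSTB, an inhibitor of cysteine cathepsins, fell by 2.13 in HA without LPS (adjusted p = 9.79e-04, limma, named after its value was seen). In the blocked fit of KO and WT 6 inhibitors rose without LPS (5.83% of all genes called) and 6 with LPS (10.7%).

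**Figure D3:**
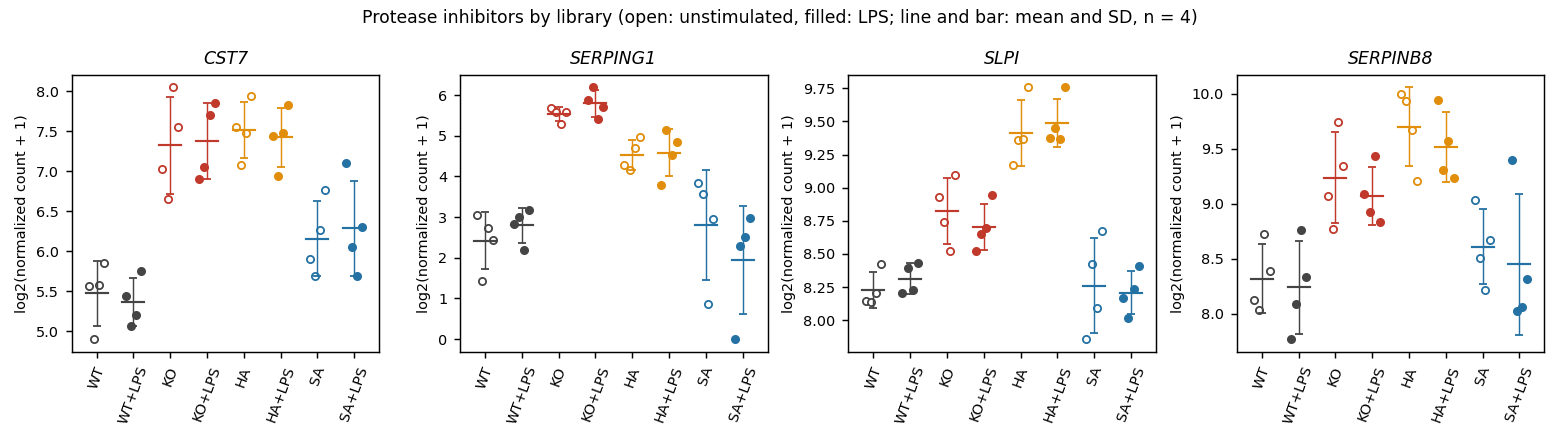
Log2(normalized count + 1) of the 4 called inhibitors of granule proteases (y axis) in each library of the 8 groups (x axis), with group mean and SD (n = 4). CST7 is higher in KO and HA than in WT, SERPING1 is highest in KO, and SLPI and SERPINB8 are highest in HA.

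Of 19 transcription factors of granule genes 17 were tested. CEBPD rose by 1.04 in KO with LPS (named after its value was seen). SPI1, which encodes PU.1, and CEBPA, which encodes C/EBP-alpha, both activators of granule genes, were not called: SPI1 differed by 0.13 in KO and HA without LPS (intervals -0.56 to 0.82), and CEBPA by -0.61 in KO (-1.73 to 0.51) and -0.71 in HA (-1.84 to 0.41). Without the libraries that stood apart CEBPA was called lower in unstimulated HA cells (-0.86, adjusted p = 0.00318, limma) and in KO cells with LPS (-1.01, adjusted p = 0.00377, limma), and the blocked fit of KO and WT with LPS called it too (-0.99, adjusted p = 8.89e-05, limma). The list had 5 calls in that blocked fit, 3 higher and 2 lower, where 10.7% of all genes were called. In HA without LPS it had 5 without those libraries, 2 higher and 3 lower, where 22.8% of all genes were called.

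Complement genes beside FCN1 and CFD were represented by 12 tested of 25. C2, the protease of the classical and lectin pathways, ran from 22.7 to 42.1 in WT and 82.1 to 160 in KO without LPS and rose by 1.72 there (adjusted p = 3.88e-04, limma) and by 1.31 with LPS (adjusted p = 0.00635, limma). The call with LPS was lost on the deposited scale and without any 1 of the 8 libraries but KO+LPS 3 (adjusted p from 0.0126 to 0.0249 in limma). ITGAM, a chain of complement receptor 3, fell by 1.41 in HA with LPS (named after its value was seen), a call lost without WT+LPS 1, WT+LPS 4, HA+LPS 1 or HA+LPS 3 (adjusted p from 0.0116 to 0.0199 in limma). No other gene of the list was called against WT. The blocked fit called 3 genes of the list in KO without LPS, all higher, where 5.83% of all genes were called. Without the libraries that stood apart 3 were called in HA without LPS, 1 higher and 2 lower, where 22.8% of all genes were called.

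Factor D stood out from its chromosomal neighbours. Of 13 genes within 100 kb of the AZU1 to CFD cluster 6 were tested, and 0 were called in KO or HA (2.02 to 3.47% of all genes). MISP, LINC01836, MIR3187, RNU6-9 and KISS1R were below the filter, and LOC101928450 and MIR4745 were not found by name. PLPPR3, upstream of AZU1, had values of -0.82 and -0.66 in KO and -0.33 and -0.38 in HA. MED16, whose span overlaps CFD, had 0.44 and 0.28 in KO and 0.63 and 0.55 in HA, opposite in sign to CFD. PLPPR3 was called in the blocked fit of KO and WT without LPS (adjusted p = 0.00453, limma), and MED16 in HA without LPS once the libraries that stood apart were left out (adjusted p = 0.00433, limma). PTBP1, PALM, R3HDM4 and ARID3A lay between -0.52 and 0.71. The difference between CFD and its neighbours was not tested.

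**Figure D4:**
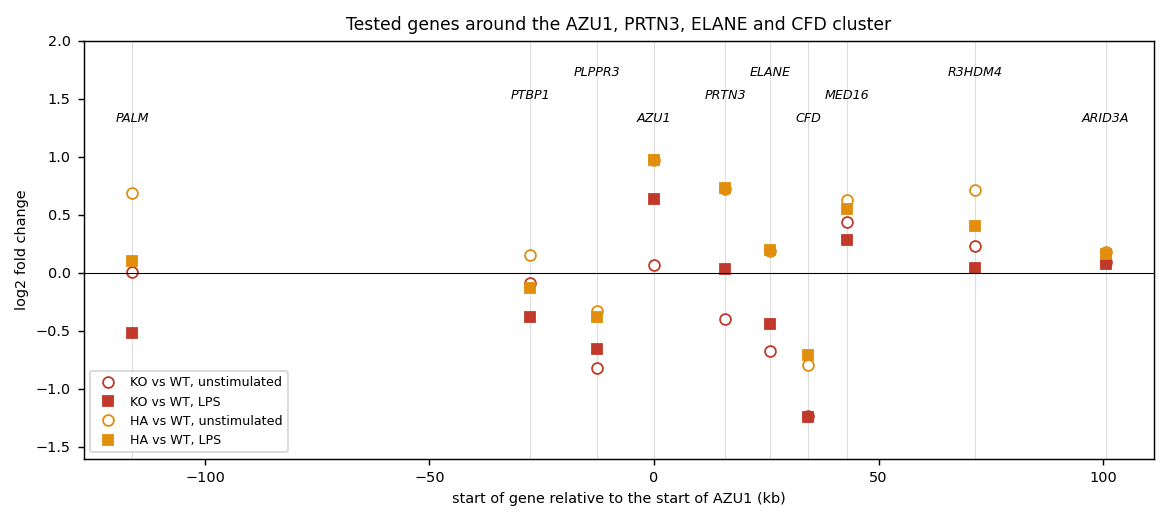
Log2 fold change from WT (y axis) of tested genes around the chromosome 19 cluster, by distance of the gene's start from that of AZU1 in kb (x axis), for KO and HA without LPS (open) and with LPS (filled). CFD is the lowest point in all 4 comparisons, and its neighbour MED16 is above 0.

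Within groups, the 10 genes split into sets that varied together. Each library's deviation from its own group mean was taken (log2), and Pearson's r was computed over the 32 libraries, which share reads, size factors and any handling with all genes. ELANE followed AZU1 (r = 0.97) and PRTN3 (r = 0.92), and PRTN3 followed AZU1 (r = 0.85). LYZ, SRGN and SERPINB1 followed each other (r from 0.73 to 0.82) and ran against ELANE (r = -0.80, -0.79 and -0.73). CTSG, MPO and CFD followed neither set (r with ELANE of 0.12, 0.35 and 0.18). Without SA+LPS 1 the values with ELANE were 0.96 for AZU1, 0.86 for PRTN3, -0.71 for LYZ, -0.74 for SRGN and -0.60 for SERPINB1. Deviations of AZU1 ran from -0.87 to 1.93 and those of LYZ from -1.30 to 0.61.

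The regulators sorted with these sets. SPI1 ran with ELANE (r = 0.91), AZU1 (0.93) and PRTN3 (0.78), and CEBPA ran against them (r = -0.91, -0.91 and -0.83) and with LYZ (0.84) and SRGN (0.87). CTSC ran with LYZ (r = 0.89) and against ELANE (-0.78). Without SA+LPS 1 the values of SPI1 with ELANE, AZU1 and PRTN3 were 0.85, 0.90 and 0.63. Those of CEBPA were -0.84, -0.86 and -0.66, with 0.78 for LYZ and 0.89 for SRGN. CTSC then had 0.85 with LYZ and -0.71 with ELANE. The r values were not computed without the other libraries that stood apart. The first SA+LPS library held 2601 normalized counts of SPI1 against 649 to 688 in the other three, and 233 of CEBPA against 3087 to 3601. The same axis was wide: of 12405 other tested genes 4.81% had r of at least 0.85 with ELANE and 20.1% had r of at most -0.7, with a median of -0.08. Among the neighbours PLPPR3 (0.94), R3HDM4 (0.92), PTBP1 (0.89) and MED16 (0.87) were in the first class.

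Several technical measures were set beside this axis. The share of reads on mitochondrial genes, 3.32 to 8.36% over libraries, had r of 0.37 with ELANE, 0.62 with CTSG and -0.58 with LYZ within groups. Read depth had r of -0.21 with ELANE and 0.16 with LYZ. The last 500 bases of AZU1, ELANE and PRTN3 held 67.0, 65.0 and 64.6% G and C, those of LYZ, FCN1 and SRGN 33.0, 30.4 and 30.0%. In the 6 libraries that stood apart, the deviation of genes rose with GC content (r from 0.12 to 0.19 across 12297 genes), and in the rest r ran from -0.30 to 0.28. Their part in the results was not tested.

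**Figure D5:**
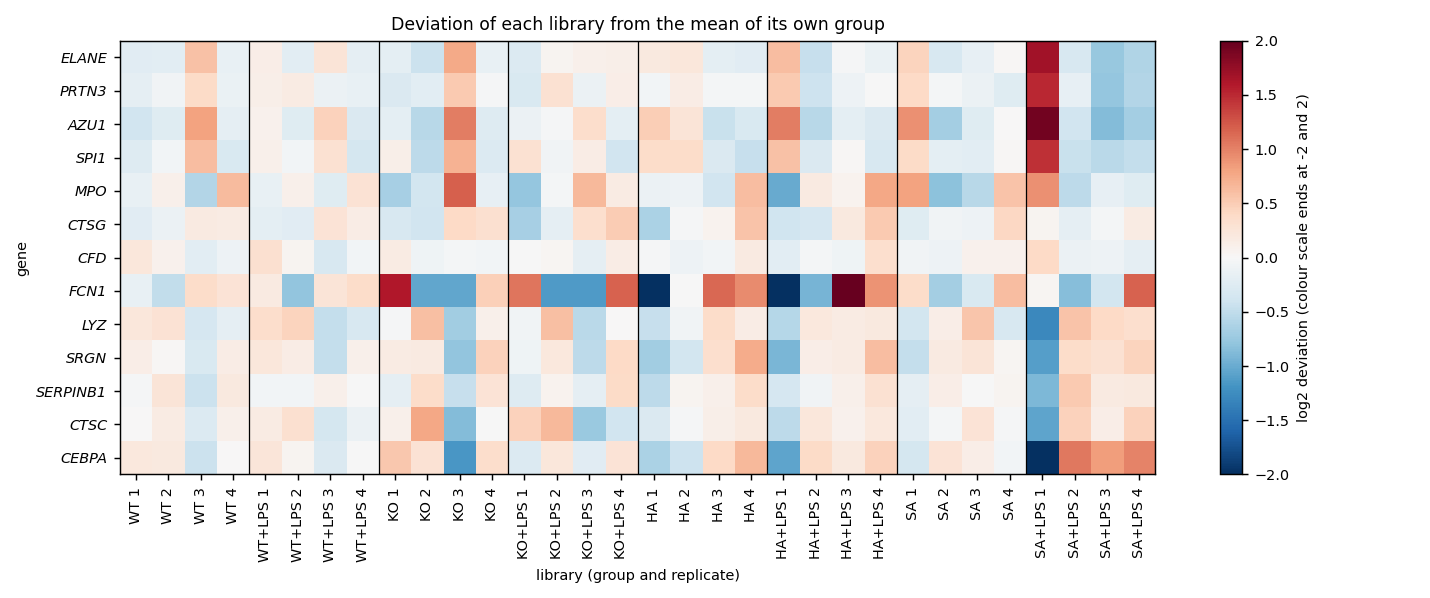
Log2 deviation of each library (x axis, by group and replicate) from the mean of its own group for the 10 genes, SPI1, CTSC and CEBPA (y axis), in red above and in blue below the mean. In WT 3, KO 3, HA+LPS 1 and SA+LPS 1, ELANE, PRTN3, AZU1 and SPI1 are red and LYZ, SRGN, SERPINB1, CTSC and CEBPA are blue.

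Over all 32 libraries, group differences included, the genes whose log2 levels were most like each member were found by Pearson's r. Those of LYZ included HLA-DRA (0.94) and HLA-DQA1 (0.93), both chains of MHC class II. CFD was closest to MARCH6 (0.92), STAR (0.91) and NNT (0.91), and FCN1 to COPS9 (0.87), IRAK1BP1 (0.85) and HMGN5 (0.84). PRTN3 was closest to RET (0.88), AZU1 (0.84) and ELANE (0.84), AZU1 to EPHX1 (0.96), FLNA (0.94) and CMTM6 (0.94), and ELANE to MT-TF, RPS9 and NRGN (0.92 to 0.93). SRGN and SERPINB1 both had DEFB1 among their nearest genes (0.92 and 0.89), SRGN beside MLC1 and TIPRL and SERPINB1 beside HLA-DQB1 and MMP24OS. CTSG was closest to PRRG4 (0.83), DPM3 and MT-ND6, and MPO had no gene above 0.66 (USP5, with MYO1C also among its nearest).

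Markers of cell types were read beside these differences. The 10 monocytic markers summed to 5513 to 6795 normalized counts in WT and 5300 to 6035 in SA, and to 7352 to 9312 in KO and 6108 to 7328 in HA, without LPS. The KO sums thus lay above all WT sums and the HA sums overlapped them, while LYZ was higher in both KO and HA. With LPS the sums were 5059 to 5844 in WT, 5646 to 7909 in SA, 7831 to 10301 in KO and 5982 to 7498 in HA. Of the 10, 2 were called higher and 0 lower in KO without LPS, 1 and 1 with LPS, 1 and 0 in HA without LPS and 1 and 2 with LPS (each named after its value was seen). Over all genes the shares called higher and lower were 1.8 and 1.1% in KO without LPS and 2.14 and 1.33% with LPS. In HA they were 1.42 and 1.1% without LPS and 1.16 and 0.854% with LPS. MNDA, a nuclear protein of myeloid cells, rose by 1.35 and 1.80 in KO and by 0.79 and 1.17 in HA, where the call without LPS (adjusted p = 0.00999, limma) was lost in 25 of the 32 fits that left out 1 library. CD14, a coreceptor for LPS, rose by 1.66 in KO without LPS and fell by 1.37 in HA with LPS, a call lost without the libraries that stood apart. CD33, a lectin of myeloid cells, fell by 0.73 in KO with LPS, a call lost without WT+LPS 1, 2, 3 or 4 or KO+LPS 1 or 4 in turn, and ITGAM fell in HA with LPS as given above. Of the 8 mature neutrophil markers 2 were tested, CSF3R and CXCR2, and the sum was 287 to 343 in WT and 244 to 261 in KO. The 5 B cell markers summed to 70.1 to 107 in WT and 152 to 214 in KO, with PAX5 1.70 higher in KO (adjusted p = 0.00205, limma, lost without WT 1, WT 4 or KO 2 in turn) and MS4A1 at no more than 3.33 in any library. The 4 fibroblast markers summed to 25.0 to 32.3 in WT and 0 to 6.50 in KO, of which DCN and COL1A1 were the detected members. The epithelial markers stayed at 36.4 or less. In bulk samples fewer cells of a type and less RNA per cell cannot be told apart, and the part of these markers in the results was not tested.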

How the data were processed

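Total RNA was sequenced with the QuantSeq 3′ forward kit. Per the paper's methods, the authors trimmed reads with Bbduk, aligned them to GRCh38 with STAR, counted reads per gene with HTSeq-count and normalized with DESeq2. Versions and the annotation release were not given in the sources used here, and the submitters' processing notes also name bcl2fastq. The deposited values were normalized counts with decimal commas, in other words counts divided by size factors set separately for each line, in 8 tables of 60199 rows, 92 of them spike-in rows that were left out.

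Whole reads were recovered by dividing each column by its smallest step (100% of values were multiples within 0.05 reads), and all 32 libraries were put on 1 scale by median-of-ratios factors over 11384 genes. The joint scale moved log2 differences from WT by 0.10 in KO, -0.15 in HA and -0.27 in SA relative to the deposited scale. The test was limma 3.58.1 (R 4.3.3, empirical Bayes with a mean trend), run for 12406 genes whose deposited counts averaged 10 or more, on log2(normalized count + 1), with all 8 groups in 1 fit. Adjusted p-values (Benjamini-Hochberg) below 0.01 were called. The deposited values were normalized counts and not reads, so a log-scale test was chosen as the main test. The alternative that models counts was voom in limma on the recovered reads. On simulated data for KO against WT without LPS, the fit called 46% of 100 genes changed 2-fold and 100% of 100 genes changed 4-fold. The spread was fixed in the simulation, so these shares need not hold for the real libraries. Error bars are SE of the fit unless SD is named.

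Groups and replicate numbers came from the sample titles. The numbers were taken to pair KO with WT because every pair of same-numbered libraries correlated above 0.1 in its deviations (0.334 to 0.682 without LPS, 0.179 to 0.723 with LPS). WT with its LPS libraries and KO with its own passed too, and comparisons with HA or SA did not. Alternatives were the deposited and total-count scales, a pseudocount of 8, no filter, voom, only the groups compared, the replicate block and each library left out in turn. Leaving out the 6 libraries that stood apart was added after the data were seen. Genes, lists and tests were chosen with earlier results of these data known. Named from each list were genes called in at least 2 of the 6 comparisons with WT (at most 4), with ACLY, CTSC, SPI1, CEBPA, the stimulation genes, neighbours within 100 kb and the 3 most similar genes in any case. A few genes that this rule names are not reported here.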

Additional observations from a re-analysis of the deposited data

Results flagged for a closer look

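In each of the 80 sets made by 1 gene and 1 group, the highest and the lowest of the 4 libraries were compared with the rest, and a library was marked when its gap to the nearest other library exceeded Dixon's 95% critical share of the group's range. For independent sets with a normal spread chance would mark about 1 in 20, and 15 sets were marked. These sets share libraries, and the counts were used without a logarithm, so the 15 cannot be read against that rate.

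Of these, 6 were in SA+LPS, in each case the first library. There ELANE was at 19509 against 3603 to 4860, PRTN3 at 3582 against 740 to 1128, AZU1 at 3336 against 476 to 666, CFD at 1939 against 1291 to 1371 and MPO at 45.8 against 16.3 to 21.2, while SRGN was low at 6619 against 17541 to 19337. In WT the third library was high for ELANE (7553 against 4323 to 4527), PRTN3 (1439 against 983 to 1057) and AZU1 (1273 against 560 to 642).

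In KO the third library was high for AZU1 (1556 against 520 to 665) and MPO (68.5 against 18.2 to 26.1), and the first for CFD (689 against 578 to 596). In HA+LPS the first library was high for AZU1 (2253 against 753 to 967) and low for LYZ (11270 against 18858 to 19306). In HA the second library was high for PRTN3 (2019 against 1753 to 1780).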

How the results depend on the processing

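All 10 called values of the 10 genes kept their sign in each of the 41 alternatives, and 5 stayed called in all of them: LYZ, FCN1 and CFD in KO against WT without LPS and LYZ and CFD with LPS. Called members in HA against WT were 5 without the libraries that stood apart (no LPS), and with LPS 1 on the deposited scale and 1 in the fit of only the groups compared. KO against HA had 3 without the libraries that stood apart (no LPS, 1459 of all genes) and 1 on the deposited scale (with LPS, CFD at -0.79, 60 of all genes). Leaving out 1 library in turn gave 1 to 3 called members in HA without LPS (187 to 555 of all genes) and 1 to 2 with LPS (155 to 352). It gave 2 to 3 in KO with LPS (322 to 628) and 0 to 1 in KO against HA without LPS (8 to 45). For these values no cause was tested.

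The replicate block in a fit of only the groups compared gave 4 called members in KO against WT without LPS (723 of all genes) and 5 with LPS (1333), where the numbers paired the libraries. For HA, where they did not, it gave 0 and 0, with 8 and 7 of all genes called. It changed no other call of the 10 genes. The block in the fit of all groups added FCN1 in HA without LPS. Among the calls of list genes and markers given above, the fit of only the groups compared lost LAMP2 in KO with and without LPS. It lost CST7, CTSD, CHI3L1 and C2 in KO without LPS, and CD33 in KO with LPS. In HA it lost CHI3L1 with and without LPS, MMP9 and MNDA without LPS, and SERPINB8, ITGAM and CD14 with LPS. The block in a fit of only the groups compared lost each HA call.

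Signs turned for values near 0. On the deposited scale these were PRTN3 in KO with LPS (-0.068), AZU1 (-0.022) and CTSG (-0.047) in KO without LPS, and LYZ (0.132) and CFD (0.025) in SA without LPS. Without the libraries that stood apart they were MPO (-0.330), AZU1 (-0.000) and CTSG (-0.024) in KO without LPS and CFD in SA with LPS (-0.115). With 1 library left out, values ran from -0.136 to 0.483 (MPO), -0.269 to 0.341 (AZU1) and -0.083 to 0.175 (CTSG) in KO without LPS, from -0.468 to 0.005 (MPO), -0.070 to 0.133 (PRTN3) and -0.228 to 0.164 (CTSG) in KO with LPS, from -0.008 to 0.353 for ELANE in HA with LPS, from -0.520 to 0.006 for AZU1 in KO against HA with LPS, and from -0.125 to 0.499 (LYZ) and -0.010 to 0.230 (CFD) in SA with LPS.

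Counts over all genes moved more: other settings gave 179 to 723 in KO (360 as reported) and 8 to 2833 in HA (313) without LPS, 300 to 1333 in KO (430) and 7 to 359 in HA (250) with LPS, and 0 to 1459 (28) and 0 to 103 (1) between KO and HA. For the LPS response the ranges were 14 to 126 (WT, 31), 21 to 116 (KO, 71), 33 to 94 (HA, 50) and 3 to 84 (SA, 61). Values of FCN1 and MPO rest on few reads per library, and the part of depth in their spread was not tested.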
